A study of Mus musculus with 6 samples.

Results

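The genes described here are 9 genes known from the inner ear and the otic capsule, the cartilage shell around it: Oc90, Otol1, Tecta, Tectb, Otog, Otoa, Otor, Pou3f4 and Coch. They were chosen by symbol, and each matched 1 of the 43496 entries of a table of gene expression in mouse cranial base. The cranial base is the cartilage plate under the brain, and the otic capsules sit at its sides. The tissue came from embryos of strain C57BL/6J at stage E15.5, with 3 controls and 3 Memo1 mutants, 1 library each. The mutants carried a Memo1 allele made with ENU, a chemical mutagen. The labels name the controls as controls and give neither the alleles they carry nor the copy number of the mutant allele. Memo1 is named for a role in the movement of cells that ERBB receptors drive. The question was which genes differ in expression between the 2 genotypes. Values are FPKM, fragments per kilobase of transcript scaled to library size, so that levels of different genes can be set side by side.

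The inner ear is a closed epithelial labyrinth that grows from the otic placode and becomes wrapped in mesenchyme and then cartilage. Some of its epithelial cells secrete otoconia, the mineral crystals on the gravity organs, and others secrete gel-like membranes without cells that lie on the sensory hair cells. Hair cells turn movement of these structures into nerve signals. The mesenchyme around the labyrinth later forms the fibrocytes of the cochlear wall and the capsule. In a bulk library, fewer cells of a type and less RNA per cell cannot be told apart.

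Memo1 was 21.4 ± 2.04 FPKM among controls and 22.6 ± 2.67 FPKM among mutants (SD, n = 3), so its level does not check the labels of an allele made by mutagenesis. Mutant 1 stood apart from the other libraries and bears on every value below. It listed 30811 of 43481 entries at 0, against 19787 to 20594 in the other 5 libraries. Its lowest 5% of nonzero values ended at 1.87 FPKM, where those of the rest ended between 0.0258 and 0.0364 FPKM. The table held no counts, but steps between low values gave relative depths from 80.2% (control 2) to 152% (mutant 3) of control 1, and none for mutant 1. The tissue label was met: all 10 cartilage genes looked at were above 0 in each library, with summed levels of 3298 to 4536 FPKM in controls and 5042 to 5849 FPKM in mutants.

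Sequences of 250 bases before the transcription start were at hand for 8 of the 9 genes, in 9 windows since Tecta has 2 starts. They come from RefSeq on build GRCm38.p6, while the submitters' processing notes name mm9 for the expression values. Those of Otor, Tectb, Tecta and Pou3f4 are shown because these genes were high together in 1 library, and that of Coch because it was not. Capitals mark exact matches on either strand to TATAAA (reverse TTTATA), the core of the TATA box, to GATAA (reverse TTATC), a core bound by GATA factors, and to ACAAAG (reverse CTTTGT), a core bound by SOX factors. No marked matches overlap.
Otor, chr2:143078143-143078392, plus strand: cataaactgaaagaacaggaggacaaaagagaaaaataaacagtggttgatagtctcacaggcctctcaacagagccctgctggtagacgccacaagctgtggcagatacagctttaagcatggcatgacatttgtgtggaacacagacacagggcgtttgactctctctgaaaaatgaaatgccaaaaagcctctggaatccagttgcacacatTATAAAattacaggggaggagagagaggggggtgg
Tectb, chr19:55180476-55180725, plus strand: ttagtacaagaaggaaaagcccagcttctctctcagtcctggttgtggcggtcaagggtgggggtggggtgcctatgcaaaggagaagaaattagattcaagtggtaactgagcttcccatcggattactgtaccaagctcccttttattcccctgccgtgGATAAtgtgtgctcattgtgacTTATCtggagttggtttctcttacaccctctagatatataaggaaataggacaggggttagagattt
Tecta downstream start, chr9:42399948-42400197, minus strand: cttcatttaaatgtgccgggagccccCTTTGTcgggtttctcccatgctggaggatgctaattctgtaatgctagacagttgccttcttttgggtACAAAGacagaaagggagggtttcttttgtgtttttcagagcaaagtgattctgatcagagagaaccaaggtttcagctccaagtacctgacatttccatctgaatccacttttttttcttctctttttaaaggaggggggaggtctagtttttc
Tecta upstream start, chr9:42401691-42401940, minus strand: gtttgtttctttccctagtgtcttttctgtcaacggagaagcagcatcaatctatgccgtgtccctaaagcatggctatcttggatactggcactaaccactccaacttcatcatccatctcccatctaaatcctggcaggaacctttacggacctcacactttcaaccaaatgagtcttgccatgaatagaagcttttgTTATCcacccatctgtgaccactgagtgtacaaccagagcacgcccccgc
Pou3f4, chrX:110814129-110814378, plus strand: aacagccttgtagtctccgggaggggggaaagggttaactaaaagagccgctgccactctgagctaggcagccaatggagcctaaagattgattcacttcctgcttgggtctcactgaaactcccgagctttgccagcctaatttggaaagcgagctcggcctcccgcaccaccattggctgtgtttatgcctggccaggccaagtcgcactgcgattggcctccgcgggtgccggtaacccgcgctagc
Coch, chr12:51593091-51593340, plus strand: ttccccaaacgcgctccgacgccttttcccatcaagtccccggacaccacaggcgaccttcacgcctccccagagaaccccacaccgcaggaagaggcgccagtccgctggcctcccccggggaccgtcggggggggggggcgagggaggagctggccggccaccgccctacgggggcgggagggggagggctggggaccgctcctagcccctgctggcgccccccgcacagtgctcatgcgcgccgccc

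Tectb held GATAA 89 and TTATC 67 bases before its start, and the upstream Tecta start had TTATC 50 bases before it. The Otol1 window, not shown, held TTATC 19 bases before the start. The GATA core thus lay in 3 of the 9 windows of these genes, and in 22.6% of 32851 promoter windows of that length. Otor held TATAAA 35 bases before its RefSeq start, a core found in 12.4% of windows. The downstream Tecta start held CTTTGT and ACAAAG 224 and 155 bases before it, and the Otog window, not shown, ACAAAG 177 and 161 bases before the start. ACAAAG or its reverse thus lay in 2 of the 9 windows of these genes, and in 16.5% of all windows. The windows of Pou3f4 and Coch held none of the 3 cores. ATGCAAAT (reverse ATTTGCAT), the octamer that POU factors bind, was in the Otol1 window 80 bases before the start, and in 1.6% of all windows. The Coch window was rich in G and C, at 74.8%, against 46% for Otor and Tectb and a median of 52.4% over all windows. Such matches describe letters and show no binding.

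The 9 genes were all highest in control 2, and for 8 of them, the exception being Coch, control 2 was over 2 times the next library. Of 26194 entries above 0 in any library, 14.9% were highest in control 2 and 2.57% were over 2 times each other library there. The genes were chosen with earlier results of these data known, so their counts are descriptions. In control 2 the 9 genes summed to 91.7 FPKM, and in controls 1 and 3 and mutants 2 and 3 to 3.94, 2.92, 4.11 and 4.72 FPKM. All 9 were listed at 0 in mutant 1. Without Oc90 the sums were 38.7 FPKM in control 2 and 2.84 to 4.67 FPKM in those other 4 libraries.

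**Figure D1:**
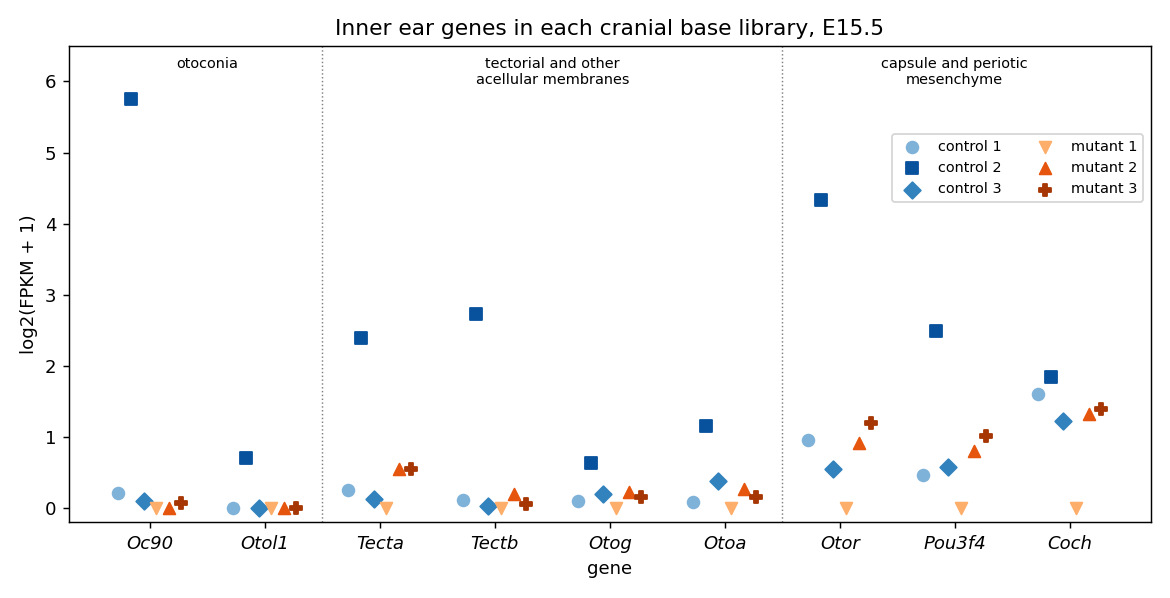
Level of the 9 genes as log2(FPKM + 1) on the vertical axis, with 1 point per library and genes ordered by role on the horizontal axis. Control 2, the dark blue square, is the highest point of every gene, with Oc90 at 53 FPKM and Otor at 19.2 FPKM, and every mutant 1 point lies at 0.

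Oc90 (ENSMUSG00000015001) encodes otoconin-90, the main protein of the otoconial matrix. It was 0.16, 53 and 0.075 FPKM in controls 1, 2 and 3, and 0, 0 and 0.0461 FPKM in mutants 1, 2 and 3. Control 2 was thus 332 times the next library, control 1, and held 99.5% of the sum over the 6 libraries. Otol1 (ENSMUSG00000027788) encodes otolin, a collagen-like protein of the same crystals. It was 0.632 FPKM in control 2 and listed at 0 in the other 5 libraries. Control 2 was the sole library above 0.16 FPKM for either gene of the otoconial matrix.

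Tecta (ENSMUSG00000037705) and Tectb (ENSMUSG00000024979) encode the tectorins, which are among the non-collagen proteins of the tectorial membrane that covers the hair cells of the cochlea. Tecta was 0.196, 4.24 and 0.0874 FPKM in controls 1, 2 and 3, and 0, 0.469 and 0.462 FPKM in mutants 1, 2 and 3. For Tectb the controls had 0.0771, 5.64 and 0.0165 FPKM, against 0, 0.148 and 0.0379 FPKM among the mutants. Control 2 stood 9.04 times above the next library for Tecta and 38 times for Tectb, and in both cases that next library was mutant 2. Mutants 2 and 3 lay above controls 1 and 3 for Tecta, at less than 0.5 FPKM.

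Otog (ENSMUSG00000009487) encodes otogelin and Otoa (ENSMUSG00000034990) otoancorin, glycoproteins of the membranes that lie on sensory epithelia or anchor there. Otog was 0.0717, 0.548 and 0.146 FPKM in controls 1, 2 and 3, and 0, 0.171 and 0.109 FPKM in mutants 1, 2 and 3. For Otoa the controls had 0.0619, 1.22 and 0.305 FPKM, against 0, 0.199 and 0.114 FPKM among the mutants. Control 2 was 3.22 times the next library for Otog and 4 times for Otoa, both smaller multiples than for the tectorins. Apart from control 2 no library exceeded 0.469 FPKM for any of the 4 membrane genes, and the genotypes overlapped for each of them.

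Otor (ENSMUSG00000027416) encodes otoraplin, a small secreted protein of the otic capsule region related to a cartilage protein. It was 0.943, 19.2 and 0.459 FPKM in controls 1, 2 and 3, and 0, 0.883 and 1.3 FPKM in mutants 1, 2 and 3. Pou3f4 (ENSMUSG00000056854) encodes a POU-domain transcription factor of the mesenchyme around the labyrinth, whose loss causes X-linked deafness. Its controls had 0.376, 4.6 and 0.491 FPKM, against 0, 0.736 and 1.02 FPKM among the mutants. For both genes control 2 was the high library, at 14.8 and 4.5 times mutant 3, the next one. Mutants 2 and 3 lay above controls 1 and 3 for Pou3f4, while for Otor mutant 2 lay between these controls.

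Coch (ENSMUSG00000020953) encodes cochlin, an abundant matrix protein of the fibrocytes in the cochlear and vestibular wall. It was 2.05, 2.57 and 1.34 FPKM in controls 1, 2 and 3, and 0, 1.51 and 1.63 FPKM in mutants 1, 2 and 3. Control 2 was 1.25 times control 1, so that Coch, unlike the other 8 genes, was at 1.34 FPKM or more in each library except mutant 1. Among the 4 libraries left when control 2 and mutant 1 are set aside, Coch was the highest of the 9 genes, followed by Otor and Pou3f4. The means of Otor and Pou3f4 over those libraries, 0.896 and 0.657 FPKM, differed by less than the range of either gene.

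On the scale of log2(FPKM + 1), which damps low values, 5 of the 9 genes stood over 2-fold above each other library in control 2: Oc90, Otor, Tectb, Tecta and Pou3f4. Over the 26194 entries 36 did so in control 2, a share of 0.137%. In controls 1 and 3 and mutants 2 and 3 the share of entries that stood out in this way was 0.241%, 0.118%, 0.305% and 0.137%, so that of control 2 lay within their range. In mutant 1 it was 7.57%. Controls 2 and 3 and mutant 3 have the first word of their titles in common, control 1 shares another with mutant 1, and the sources used here do not say what the word means. For Oc90 control 3 and mutant 3 were at 0.075 and 0.0461 FPKM.

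Genes next to the 9 were, for the most part, even across the controls. Within 10 kb of a member in the GENCODE annotation of GRCm38, 8 protein-coding or microRNA genes were in the table. Efr3a, next to Oc90, was 17.4, 17 and 14.1 FPKM in controls 1, 2 and 3. Snrpb2, which lies on the same strand next to Otor, was 33.1, 37.7 and 29.8 FPKM, and Strn3, next to Coch, was 23.6, 24.7 and 23.3 FPKM in these controls. Ush1c, a scaffold protein of hair cell bundles that neighbours Otog, was 0.501 FPKM in control 2 and 0.413 FPKM in mutant 2, against at most 0.0715 FPKM elsewhere. Tecta overlaps an antisense gene, Gm47629, that has no entry, and the sources used here do not say whether the counting used strand, so the value of Tecta could include its reads.

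The genotype comparison called none of the 9 genes. Only Oc90, Otor, Pou3f4 and Coch reached a mean of 1 FPKM over the 6 libraries and were tested with limma, and for the first 3 control 2 alone carried them past this filter. The log2 change, mutant minus control on the log2(FPKM + 1) scale, was -2 for Oc90 (SE 1.57), -1.24 for Otor (SE 1.07), -0.57 for Pou3f4 (SE 0.66) and -0.65 for Coch (SE 0.48). The limma adjusted p was 0.695 for Oc90, Otor and Coch and 0.707 for Pou3f4, two-sided with Benjamini-Hochberg adjustment. Over all 15710 tested genes limma called 0, a share of 0%, with 805 (5.12%) at an unadjusted p under 0.05. Their median log2 change was -0.046, and 54.2% were below 0.

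For all 9 genes the mutant mean was below the control mean on the log2 scale, but the genotypes overlapped for 8 of them. In Oc90 every mutant lay below every control, with the nearest values at 0.0461 and 0.075 FPKM. Of the entries above 0 in any library 10.2% had all mutants below all controls, and of the tested genes 11.9% did. By the exact two-sided permutation test, whose smallest possible p with 3 against 3 is 0.1, Oc90 had p = 0.1, Coch and Otoa p = 0.3, Otog and Otor p = 0.5, Pou3f4 and Tectb p = 0.6, Tecta p = 0.8 and Otol1 p = 1. These are unadjusted values over 9 genes, and no gene could have gone below the threshold of 0.05.

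Leaving out control 2 turned or reduced most of these differences. Without it the log2 change was -0.14 for Oc90, -0.05 for Otor, 0.09 for Pou3f4, 0.18 for Tecta and 0.02 for Tectb, with limma adjusted p of 0.902, 0.978 and 0.951 for the first 3. Oc90, Otor and Pou3f4 were in this test only through control 2, since the filter still used the mean over all 6 libraries. Without control 2, 5 of the 9 genes were below 0, 3 were above it, and Otol1 was at 0 in every library left. Coch depended more on mutant 1, since its change was -0.65 with all libraries, -0.51 without control 2 and -0.20 without mutant 1. With both libraries set aside, an alternative chosen after seeing the data, the log2 change was 0.39 for Pou3f4, 0.36 for Tecta, 0.31 for Otor, -0.13 for Oc90 and -0.06 for Coch. In that comparison of 2 against 2 libraries 5 genes were above 0 and 3 below, and the limma adjusted p was 0.434 for Pou3f4, 0.602 for Otor, 0.796 for Oc90 and 0.923 for Coch. Here too control 2 alone had carried Oc90, Otor and Pou3f4 past the filter.

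**Figure D2:**
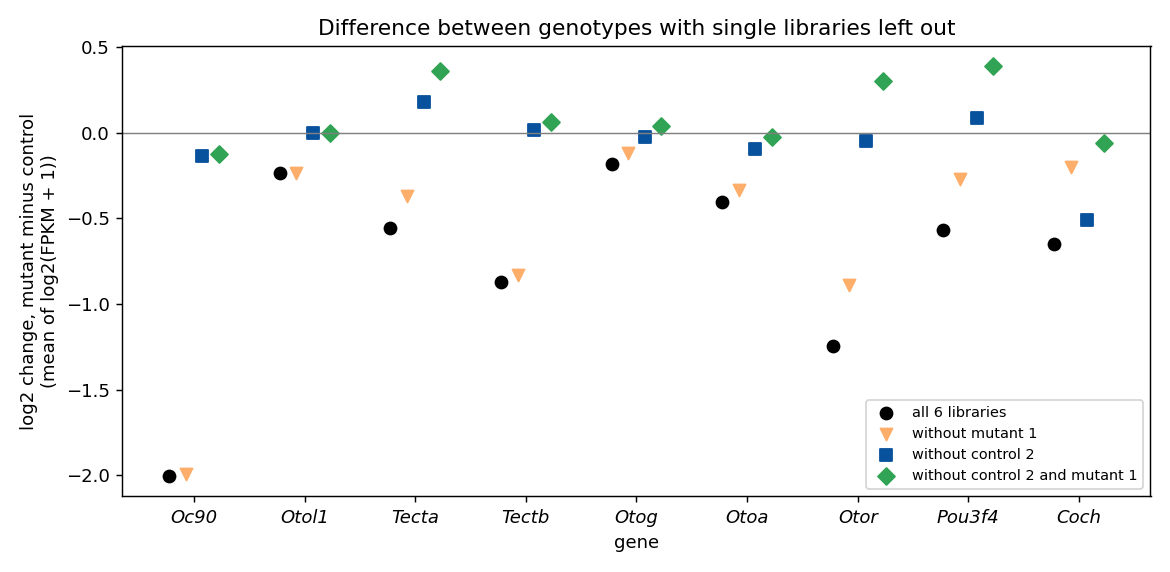
Log2 change of each gene, mutant minus control, on the vertical axis with all 6 libraries, without mutant 1, without control 2, and without both, for the 9 genes on the horizontal axis. With control 2 in the comparison all points lie below 0 (Oc90 at -2 with all libraries), without control 2 they lie between -0.51 and 0.18, and without both libraries between -0.13 and 0.39.

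In the authors' deposited table Oc90 has the most negative signed fold of all entries, -887 (p = 0.344, q = 0.529). Tectb has rank 17 from that end, with -31.83 (p = 0.384 in the authors' deposited table). The fold for Otor in the authors' deposited table is -9.42, that for Otoa -5.3 and that for Tecta -4.87. The smallest p among the 9 genes in the authors' deposited table is 0.253, for Coch, and the sources used here do not name the test.

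Most entries at the levels of these genes were listed at 0 in mutant 1. Of 2306 entries with a median of 0.05 to 0.2 FPKM over the other 5 libraries, where Oc90, Otoa, Otog and Tectb lie, 94.7% were listed at 0 in mutant 1. The share was 90.5% between 0.2 and 0.5 FPKM, the range of Tecta, and 83.7% between 0.5 and 1 FPKM, the range of Otor and Pou3f4. For Coch, between 1 and 2 FPKM, it was 70.7%. At 10 to 20 FPKM it was 9.37% and at 20 to 50 FPKM 4.74%, ranges in which none of these genes had its median.

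**Figure D3:**
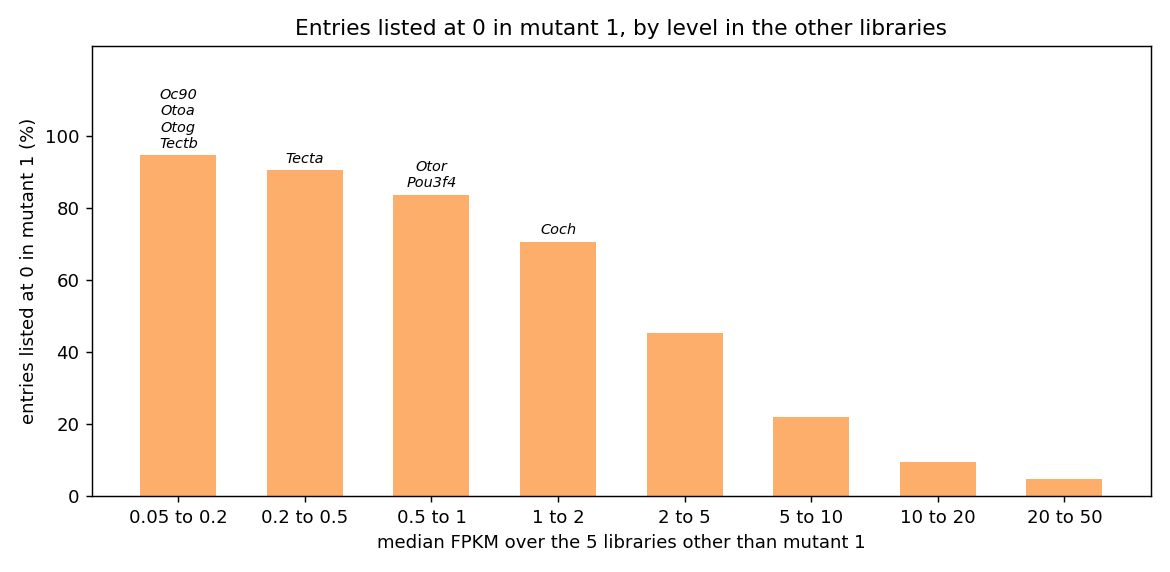
Share of entries listed at 0 in mutant 1 (vertical axis, in percent) by the median FPKM of the entry over the other 5 libraries (horizontal axis), with names of the genes described above the bar of their range. The share falls from 94.7% at 0.05 to 0.2 FPKM to 9.37% at 10 to 20 FPKM, and the 8 genes named sit where it is 70.7% or more.

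Across 7 further lists with 76 inner ear genes 75 were above 0 FPKM in at least 1 library. Of these 21 (28%) were highest in control 2, and 9 (12%) were over 2 times each other library there. Both shares lay above those over all entries, 14.9% and 2.57%, and below those of the 9 genes. The lists were chosen with earlier results of these data known, so these shares are descriptions. Several of the genes behind the second share were near the floor: Otop1, Pax2, Loxhd1, Atoh1 and Tyr were at most 0.231 FPKM in control 2. On the scale of log2(FPKM + 1), 1 of the 75 stood over 2-fold above each other library in control 2, against 0.137% of all entries. Of the 32 that were tested limma called 0, 13 had a log2 change above 0 and 19 below, and the median was -0.047, close to the -0.046 of all tested genes. All mutants lay below all controls in 4 of the 32 and above them in 3, against 20.9% of all tested genes without overlap in either direction.

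The list of otoconial and membrane genes held 7 genes, of which Otop1 was the one over 2 times each other library in control 2. Otop1, a proton channel needed for otoconia, was 0.231 FPKM in control 2 and at most 0.0852 FPKM elsewhere. Otogl, the gene of otogelin-like, was 0.751 FPKM in control 2 and 1.21 FPKM in mutant 1. Noxo1, a subunit of the oxidase that otoconia need and that is also made in other epithelia, was 3.5, 1.72 and 2.53 FPKM in controls 1, 2 and 3 and 0, 1.93 and 0.78 FPKM in the mutants (log2 change -1.02, SE 0.48, limma adjusted p = 0.695). Nox3, the oxidase itself, was listed at 0 in all 6 libraries. Oc90, Otol1 and the tectorins thus had few partners in this list that were high in the same library.

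Of 18 hair cell genes 6 were highest in control 2, and Atoh1 and Loxhd1 were over 2 times each other library there. Atoh1, the factor that sets hair cell fate, was 0.106 FPKM in control 2 and at most 0.0364 FPKM elsewhere. Myo7a, a myosin of hair bundles that other tissues also make, averaged 6.64 ± 0.572 FPKM over the controls, against 5.34 ± 0.65 FPKM over the mutants (SD, n = 3), without overlap and with a limma adjusted p of 0.695. Espn, an actin bundler, was 2.07 ± 0.736 FPKM in controls against 1.79 ± 0.702 FPKM in mutants (SD, n = 3). Myo15, another hair bundle myosin, reached 4 FPKM in mutant 1, with the other 5 libraries between 0.192 and 0.529 FPKM. Pou4f3, a hair cell factor, was 1.9 FPKM in control 1, 0.444 FPKM in control 2 and 1.58 FPKM in mutant 3, so that control 2 was not its highest library.

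Of 18 genes of the otic epithelium and its sensory precursors, 6 were highest in control 2 and Gata3, Pax8, Lmx1a and Pax2 were over 2 times each other library there. These 4 were singled out after their values were seen. Gata3, a transcription factor of the otic epithelium and of other tissues, was 1.63, 10.7 and 2.58 FPKM in controls 1, 2 and 3 and 0, 2.39 and 3.34 FPKM in mutants 1, 2 and 3. Pax8, an early otic and thyroid factor, was 1.13 FPKM in control 2 and at most 0.286 FPKM elsewhere. Eya1 and Lfng, which were more abundant, were not highest in control 2. Eya1, a transcriptional co-activator of the early ear, averaged 14.7 ± 4.83 FPKM over the controls, against 18.3 ± 5.95 FPKM over the mutants (SD, n = 3), with mutant 1 at 25 FPKM. Its log2 change was 0.30, and 0.06 without mutant 1 or 0.08 without control 3. Lfng, a modifier of Notch, averaged 11.4 ± 0.323 against 9.39 ± 1.34 FPKM (SD, n = 3), without overlap and with a limma adjusted p of 0.695.

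**Figure D4:**
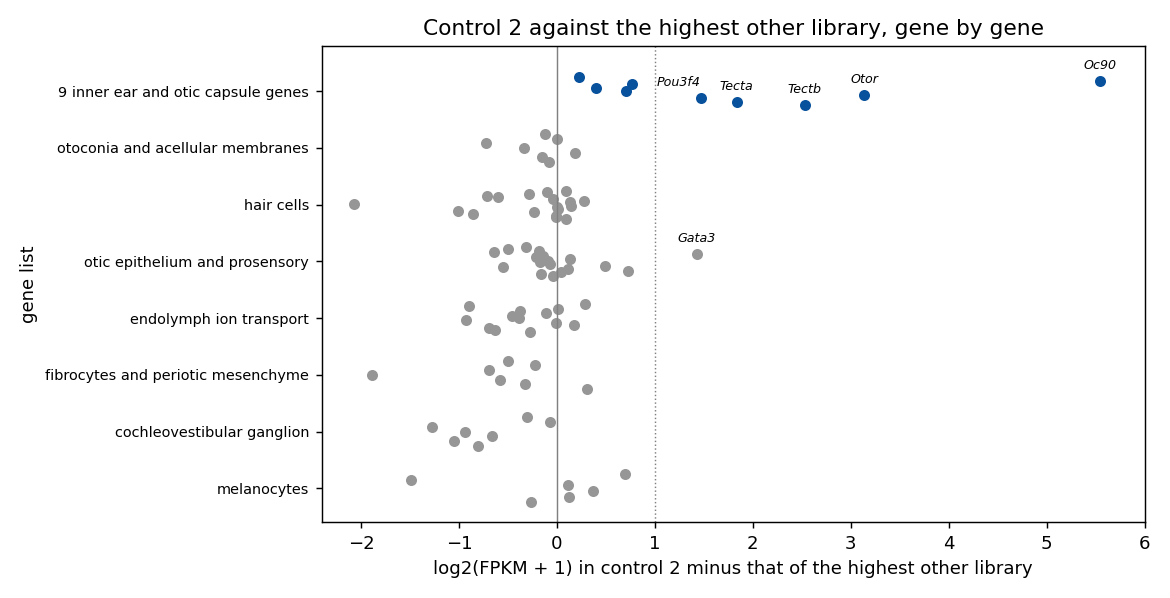
For each gene of the 9 and of the 7 other inner ear lists (vertical axis), the log2(FPKM + 1) of control 2 minus that of the highest other library (horizontal axis), with a dotted line at a 2-fold difference. Oc90 lies at 5.54 and Otor at 3.14, and of the other 76 genes Gata3 alone, at 1.43, lies beyond the line.

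Ion transport genes of the fluid-filled ducts had 0 of 13 members over 2 times each other library in control 2, against 2.57% of all entries. With so few genes, 0 is near that share. Gjb2 and Gjb6 encode the gap junction proteins of the supporting cells. Gjb6 was 6.16, 15.9 and 5.91 FPKM in controls 1, 2 and 3 and 8.75, 12.5 and 16 FPKM in the mutants, so that the highest values of the genotypes were nearly equal. Gjb2 averaged 12 ± 1.29 FPKM over controls against 16.9 ± 8.23 FPKM over mutants (SD, n = 3), the latter with mutant 1 at 26.5 FPKM. The ion carrier Slc12a2 averaged 12.2 ± 0.344 against 12.1 ± 2.42 FPKM (SD, n = 3).

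Fibrocyte and periotic mesenchyme genes, the group to which Coch and Pou3f4 are closest, also had 0 of 7 members over 2 times each other library in control 2. This too is near the 2.57% of all entries for so few genes. Tbx18, a factor of the otic fibrocytes that was picked after its values were seen, was highest in control 2, at 4.84 FPKM against 3.72 FPKM in mutant 1. Cldn11, the claudin of strial basal cells and of several other tissues, averaged 20.8 ± 3.23 FPKM over controls against 29.6 ± 3.17 FPKM over mutants (SD, n = 3), with all mutants above all controls (log2 change 0.49, SE 0.16, limma adjusted p = 0.695). Tbx15, a T-box factor, averaged 18.7 ± 1.7 against 23 ± 1.07 FPKM (SD, n = 3), again without overlap (limma adjusted p = 0.695). Epha4, an ephrin receptor of this mesenchyme and of nerves, had 2.44 FPKM in mutant 1, and 11.2 to 18.7 FPKM elsewhere.

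In the ganglion list 0 of 7 genes were highest in control 2, against 14.9% of all entries. Prph, the filament protein peripherin of sensory neurons, averaged 69.9 ± 30 FPKM over controls against 92.5 ± 18.3 FPKM over mutants (SD, n = 3). The transcription factor Isl1 averaged 14.5 ± 2.71 against 12.7 ± 4.85 FPKM (SD, n = 3). Of 6 genes of melanocytes, pigment cells that the cochlear wall also contains, 4 were highest in control 2, and Dct and Tyr were over 2 times each other library there. Dct, an enzyme of pigment synthesis, was 0.776 FPKM in control 2 and at most 0.1 FPKM elsewhere. Mitf, the lineage's transcription factor, averaged 1.24 ± 0.248 FPKM over controls against 2.63 ± 2.71 FPKM over mutants (SD, n = 3), with mutant 1 at 5.75 FPKM. Pmel was 1.43 FPKM in control 2 and 0 to 0.884 FPKM elsewhere.

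Some genes of other tissues near the cranial base were also high in control 2. The 5 choroid plexus genes summed to 71.6 FPKM in control 2, 8.41 and 14.7 FPKM in the other controls and 2.34 to 9.12 FPKM in mutants. Of these, Ttr, the thyroid hormone carrier of that tissue, was 0.252, 58.3 and 0.169 FPKM in controls 1, 2 and 3 and 0, 0.135 and 0.519 FPKM in the mutants. Kcne2, a potassium channel subunit of the same epithelium, was 1.42 FPKM in control 2 and at most 0.118 FPKM elsewhere, and Folr1 3.02 against at most 1.46 FPKM, while Clic6 and Otx2 were highest in control 1. In mutant 1 4 of the 5 were listed at 0.

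The 10 pituitary genes summed to 101 FPKM in control 2 and 107 FPKM in mutant 2, against 2.58 and 3.05 FPKM in the other controls and 0 and 5.32 FPKM in mutants 1 and 3. Pomc, the hormone precursor, was 53.7 FPKM in control 2 and 66.2 FPKM in mutant 2, and at most 2.44 FPKM elsewhere. In mutant 2, where the pituitary genes were as high, Oc90 was listed at 0 and Otor was 0.883 FPKM. All 10 pituitary genes were listed at 0 in mutant 1, and in control 1 Pou1f1, Gh, Prl and Lhx4 were among those listed at 0. The part of these tissues in the values of the 9 genes was not tested. The lists of surface and airway epithelium, nerve and muscle had their highest sums in controls 3, 1 and 3. The 8 epithelial genes summed to 647 to 678 FPKM in controls and 363 to 383 FPKM in mutants. All mutants lay below all controls for 5 of the 8, each of them a keratin, and for 11.9% of all tested genes. The smallest limma adjusted p of the list was 0.071, for Krt5, a keratin of basal cells. Among the rest the genotypes overlapped, with a log2 change of 0.24 for Cdh1, 0.21 for Epcam and -0.028 for Foxj1. Myo7a and Lfng, which epithelia also make, lay lower in mutants beside this keratin difference, and its part in their values was not tested. For Myo7a the nearest values were 6.15 FPKM in control 3 and 6.09 FPKM in mutant 2. Jag1 and Sox2, from the same list as Lfng, also had all mutants below all controls.

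**Figure D5:**
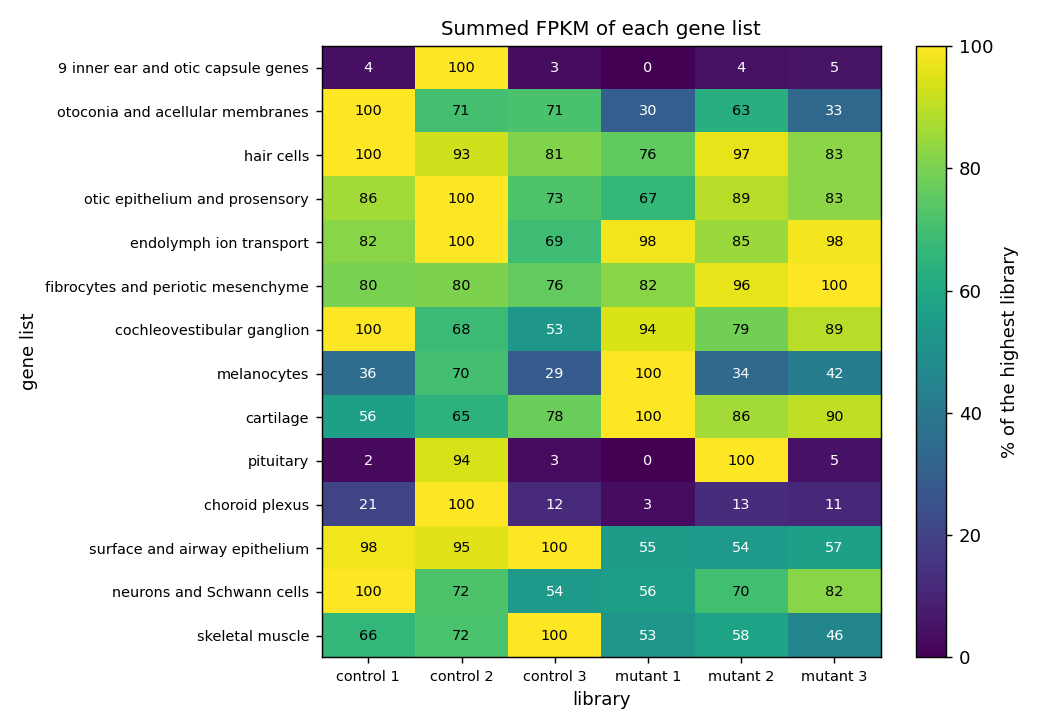
Summed FPKM of each gene list (rows) in each library (columns), as a percentage of the library in which that list was highest. The 9 genes reach 100 in control 2 and at most 5.15 in the other libraries, the choroid plexus list 100 in control 2 and at most 20.6 elsewhere, and the pituitary list 93.8 in control 2 and 100 in mutant 2.

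The tested genes most like each of the 4 tested members were found by the root mean square difference of log2(FPKM + 1), centred on each gene's mean over the 6 libraries. Nearest to Oc90 was Ttr, at a difference of 0.169, with Gm27611 and Efcab10 next at 0.797 and 0.808. Efcab10, a gene of an EF-hand protein, was 98.7 FPKM in control 2 and 0 to 4.67 FPKM elsewhere. Nearest to Otor were the gene models Gm27611, Gm14513 and Gm22701, from 5.91 to 10.7 FPKM in control 2 and at most 0.447 FPKM elsewhere. Control 2 alone carried these gene models, like Oc90, Otor and Pou3f4, past the filter at a mean of 1 FPKM. Genes like these members were sought by a profile high in control 2, so their being high there is no separate result. Nearest to Pou3f4 was Sectm1b (0.229), followed by Gm26750 and Lrrc27. Over the 5 libraries without mutant 1, an alternative chosen after seeing the data, Gata3 was nearest to Pou3f4, at 0.116.

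The profiles most like Coch were of another shape. Over 6 libraries they were those of Aim2, Aqp11 and Zfp964, at differences of 0.0799, 0.0813 and 0.0839. These were 1.16 to 2.43 FPKM in the 3 controls and at 0 in mutant 1, like Coch itself. Over the 5 libraries without mutant 1 they were Apod, Dusp26 and Parg, none of which was among the first 3. Likeness here describes these 6 libraries and no more.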

How the data were processed

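RNA of E15.5 cranial base was isolated with a Norgen kit and sequenced from Illumina libraries, per the labels' protocols. The authors deposited FPKM for 43496 entries in 6 libraries. The submitters' processing notes name Cufflinks and mm9, and the unit was inferred from that tool and the values. The sources used here name no aligner, annotation or filter. The authors deposited a signed fold, treated as a score, and also a p-value and a q-value from an unnamed test, with 99 standing for q in 37016 entries. The 15 entries with the code 999999999 were treated as missing and left out, which leaves 43481.

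Entries averaging 1 FPKM or more were compared by limma 3.58.1 (R 4.3.3) after the transform log2(FPKM + 1), which understates changes of low genes, with genotype as the term (lmFit, eBayes with trend and robust estimates, two-sided, Benjamini-Hochberg over 15710 genes, threshold 0.05). The script was tested on simulated data that changed only genes with a higher mean than any of the 9, so that test does not cover them. Permutation tests used SciPy 1.17.1. Promoters came from RefSeq (GRCm38.p6) by symbol and neighbours from GENCODE (GRCm38) by gene ID. Each sample has its own title and was taken as a separate embryo. Replicate numbers follow accession order, and p-values cover the spread between these samples. Since an exact 0 may be a failed estimate, genes with a 0 are given by library. Named genes were the 9 genes, the 3 highest of each of 7 inner ear lists, and the 3 tested genes most like each tested member; genes outside this rule (such as Memo1, Nox3, Atoh1, Pou4f3, Gata3, Pax8, Tbx18, Pomc and the genomic neighbours) were chosen after their values were seen. Some genes that the rule named are not reported here. The members and lists were chosen with earlier results of these data known. Of the genes of other tissues, Tubb3 and Acta1 matched no entry. Alternatives were pseudocounts of 0.1 and 5, no filter and a filter at 5 FPKM, upper quartile and quantile scaling, array weights, plain eBayes, the first title word as a random effect (statmod 1.5.0), each library left out and, chosen after seeing the data, the title word as a fixed block and control 2 and mutant 1 left out together.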

Additional observations from a re-analysis of the deposited data

How the results depend on the processing

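The labels give no replicate numbers shared between genotypes, but the first title word ties control 1 to mutant 1 and controls 2 and 3 to mutant 3. With that word as a random effect (correlation 0.108), or as a fixed block, added after seeing the data, 0 genes were called. Mutant 2 has a title word of its own, so with the fixed block it added nothing to the genotype difference. The fixed block turned the direction of Slc12a2 (0.064), and of no other gene named by the rule and reported. None of the 9 genes was called under any of the 17 alternatives that tested it. The count over all genes was 1 with quantile normalization, 320 with array weights (113 higher, 207 lower) and 59 without control 2 and mutant 1, and it lay between 0 and 7 when libraries were left out in turn, the 7 without mutant 1. The cause was not tested. All 9 genes were below 0 under each alternative that kept control 2. Upper quartile scaling moved the median log2 change of all genes by -0.099.

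With each library left out in turn the log2 change ranged from -1.94 to -0.047 for Otor, -0.93 to 0.086 for Pou3f4, -0.34 to 0.049 for Espn, -0.17 to 0.055 for Slc12a2, -0.96 to 0.30 for Epha4, -0.46 to 0.087 for Isl1 and -0.11 to 0.76 for Mitf. The direction turned without control 2 for Pou3f4, Tecta (0.18), Tectb (0.019) and Pmel (0.065), without control 1 for Espn, without mutant 1 for Slc12a2, Epha4, Isl1, Mitf and Pmel (0.10), and without mutant 2 for Slc12a2. It turned without both control 2 and mutant 1 for Otor (0.31), Pou3f4 (0.39), Tecta (0.36), Tectb (0.061), Otog (0.040), Pmel (0.36), Slc12a2 (0.053), Epha4 (0.19), Isl1 (0.067) and Mitf (-0.056), and for Espn, which kept its direction, the change was -0.45. With array weights it turned for Eya1 (-0.0068), Slc12a2 (0.12), Epha4 (0.24), Isl1 (0.042), Pmel (0.051) and Mitf (-0.098), and with quantile normalization for Espn (0.12). With a pseudocount of 0.1 the log2 change was -1.25 for Otoa, -0.76 for Otog and -0.96 for Otol1.

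The table does not give the number of fragments behind a value, so differences between values under 1 FPKM have no counting error beside them.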
